A study of Mus musculus with 2 samples.

Results

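Gnas (ENSMUSG00000027523.19; mm10, chr2:174284320-174346744, plus strand) is an imprinted mouse gene in which several first exons are spliced onto 1 shared set of exons. Its transcripts were read as whole molecules by long-read RNA sequencing of adrenal tissue from female mice of the strain B6CASTF1/J, which were 25 days old. The strain is a hybrid that joins the C57BL/6J and CAST/EiJ genomes, and the labels give no treatment and no engineered allele. All transcript models that the deposited tables name Gnas were taken, 32 of 65815 models in replicate 1 and 48 of 99180 in replicate 2. The antisense-class models that overlap the locus were added, 1 in replicate 1 and 4 in replicate 2. The labels give 1 group of 2 libraries, biological replicates 1 and 2, so there was no condition to compare and each test below sets one library, or one kind of read, against another. In the labels a single animal is named for both libraries but a separate animal for each tissue sample. With this doubt, the spread between the libraries may be technical in part.

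Gnas encodes G-alpha-s, the subunit that carries the signal of hormone receptors to adenylyl cyclase and so to cyclic AMP. In the adrenal cortex this is the route by which corticotropin drives the making of steroid hormones. Upstream of exon 1, which starts G-alpha-s, lie 3 other kinds of first exon. The Nesp exon encodes NESP55, a chromogranin-like secretory protein of neuroendocrine cells, whose reading frame lies in its own exon. The XL exon gives XL-alpha-s, a long form of the G protein subunit, and exon 1A starts transcripts that are not known to make a protein. Nesp transcripts are known to come from the maternal allele, and those of XL, exon 1A and the antisense gene Nespas from the paternal allele. Alleles were not examined here.

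The first exons lie in the order Nesp (174284320-174285477), XL (174297859-174300217), exon 1A (174327570-174328131) and exon 1 (174330006-174330434). All are joined to exon 2 (174334212-174334284), which is followed by the cassette exon 3 (174336747-174336791) and by exon 4 (174341653-174341707). Exon 3 separates the long from the short form of G-alpha-s. Exon 4 has a second acceptor 3 bases upstream, and the choice between them adds or leaves out 1 codon. The sequences of the 3 main transcripts from the last 20 bases of exon 2 to the first 20 bases of exon 4 show what the splice choices change. Capitals mark the 45 bases of exon 3 and the 3 bases that the upstream acceptor adds (chr2:174334265-174341672, plus strand, spliced sequence of the GENCODE M21 transcripts, mm10).
Gnas-208: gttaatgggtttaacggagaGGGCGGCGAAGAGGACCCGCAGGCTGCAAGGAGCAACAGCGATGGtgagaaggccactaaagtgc
Gnas-207: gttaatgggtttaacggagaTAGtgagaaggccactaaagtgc
Gnas-206: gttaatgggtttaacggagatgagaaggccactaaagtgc
Gnas-208 holds exon 3, Gnas-207 skips it and enters exon 4 at the upstream acceptor, and Gnas-206 skips it and enters at the downstream acceptor. Exon 3 is 68.9% G and C and holds 15 codons with no base left over, so both choices keep the reading frame.

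Promoter sequence was at hand for 3 of the first exons, in RefSeq's table for GRCm38.p6 (the same build as mm10), and is shown because the first exons were read at very different levels. Each line gives the 100 bases before the listed start, on the plus strand. Capitals mark TTTATAGG, which was found on the plus strand at base -31 from the listed Nesp start and at -85 from the listed exon 1A start. The listed exon 1A start is 174327749, and the bases shown before it lie inside the exon 1A region given above. Annotated exon 1A transcripts start at several bases, Gnas-221 at 174327699, so positions given for exon 1A depend on the start used.
Nesp (chr2:174284220-174284319): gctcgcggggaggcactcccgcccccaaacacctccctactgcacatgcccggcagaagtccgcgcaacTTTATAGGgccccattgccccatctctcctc
exon 1A (chr2:174327649-174327748): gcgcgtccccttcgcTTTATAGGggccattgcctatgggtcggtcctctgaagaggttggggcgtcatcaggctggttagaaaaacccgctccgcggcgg
exon 1 (chr2:174329906-174330005): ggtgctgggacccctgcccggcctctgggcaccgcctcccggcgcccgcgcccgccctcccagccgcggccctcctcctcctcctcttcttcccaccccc
The window from 250 bases before to 50 after a start was searched for 5 motifs on both strands. They were TATAAA (the TATA box), CCAAT (the CCAAT box), GGGCGG (an Sp1 site), TGACGTCA (the cyclic AMP response element) and TTTATAGG. TTTATAGG was taken from letters shared by the Nesp and exon 1A sequences above, so its presence in both was fixed by that choice. TTTATAGG overlaps the minus-strand match of TATAAA, and of 32851 promoters of this length 0.928% held TTTATAGG and 13.6% held TATAAA. The share for TTTATAGG does not measure how unusual the match is. The exon 1 window held GGGCGG 3 times on the minus strand, at -200, -49 and 35, and neither TATAAA nor TTTATAGG. The Nesp window held GGGCGG once, at -82 on the minus strand, and 35.7% of all promoters held it. CCAAT, present in 37.4% of promoters, was found in the exon 1A window at -165 on the minus strand, and TGACGTCA, present in 1.79%, in none of the 3. The 100 bases shown were 65% G and C before Nesp, 62% before exon 1A and 80% before exon 1, with 6, 9 and 9 CpG.

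Gnas had 770 reads in replicate 1 and 1278 in replicate 2. Scaled to each library's reads on annotated mouse genes, 397176 and 712032, this came to 1939 and 1795 CPM (counts scaled to 1000000 such reads), a mean of 1867 ± 102 (SD, n = 2). The gene thus took 0.194% of the reads in replicate 1 (95% Wilson interval 0.181 to 0.208) and 0.179% in replicate 2 (0.170 to 0.190). The log2 ratio of replicate 2 over replicate 1 was -0.11, which a two-sided exact binomial test did not call (adjusted p = 0.545 over the 9271 genes tested). By the same test 199 genes, 2.15% of those tested, differed between the libraries. Here, as everywhere below, intervals and tests cover counting error only, and reads amplified without molecular identifiers are not independent molecules. In bulk tissue, fewer cells of a type and less RNA per cell cannot be told apart.

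The gland's own markers were present in both libraries. The 6 genes of the adrenal cortex took 7.46% and 6.73% of reads, and the 8 genes of the chromaffin cells, the neuroendocrine cells of the medulla, 1.09% and 1.20% (replicates 1 and 2). Of the chromaffin markers 3 of 8 passed the between-library test, of which Chgb and Chga were higher in replicate 2 and Th in replicate 1. Of the cortex markers 4 of 6 passed, of which Star, Cyp11a1 and Cyp11b1 were higher in replicate 1 (log2 of replicate 2 over replicate 1 -0.39, -0.22 and -0.27) and Hsd3b1 in replicate 2. The 4 liver genes had 91 reads in replicate 1 and 1 in replicate 2, and all 4 passed. The 2 genes of brown fat took 0.106% and 0.0743% of reads, and Ucp1 passed, higher in replicate 1 (log2 ratio -0.91, adjusted p = 7.4e-08, exact binomial test). Over all genes tested, 2.15% passed. The test calls smaller ratios where reads are many: Chga, with 1916 and 3799 reads, passed at a log2 ratio of 0.15. The part of the marker differences in the Gnas results was not tested.

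Most Gnas reads ran from an annotated first exon to the last exon. Of all Gnas reads, 87.5% in replicate 1 and 85.4% in replicate 2 matched the introns of an annotated transcript, beside 77.1% and 77.0% of the reads of all annotated genes. Models of 1 exon held 2.21% and 3.52% of Gnas reads, beside 11.3% and 11.3% over all genes. Reads with an annotated first exon made up 94.8% and 93.5%. Another 20 and 28 reads began in or after exon 2, and 17 and 45 held no intron. A read that stops short of its first exon cannot be placed in any first-exon group.

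Of 24 annotated Gnas transcripts, 6 had reads in replicate 1 and 8 in replicate 2. Gnas-208, the long G-alpha-s form, had 374 and 648 reads, or 926 ± 22.3 CPM (SD, n = 2). Gnas-207 had 177 and 259 reads, and Gnas-206 had 96 and 124, both short forms. Gnas-211, which starts at Nesp, had 24 and 49 reads. The others were rare. The XL transcript Gnas-209 had 2 and 4 reads, but it shares every intron with Gnas-201, Gnas-223 and Gnas-224, so its reads cannot be told from theirs. The exon 1A transcript Gnas-221 had 1 and 5 reads, Gnas-202 had 0 and 1, and Gnas-204, which ends soon after the XL exon, had 0 and 1. The share of Gnas-208 among annotated Gnas reads was 55.5% in replicate 1 (51.7 to 59.2) and 59.4% in replicate 2 (56.5 to 62.3). Fisher's exact test did not call them different (p = 0.112, adjusted p = 1 over 1866 genes). That test called 3 of the 1866 genes, or 0.161%.

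**Figure D1:**
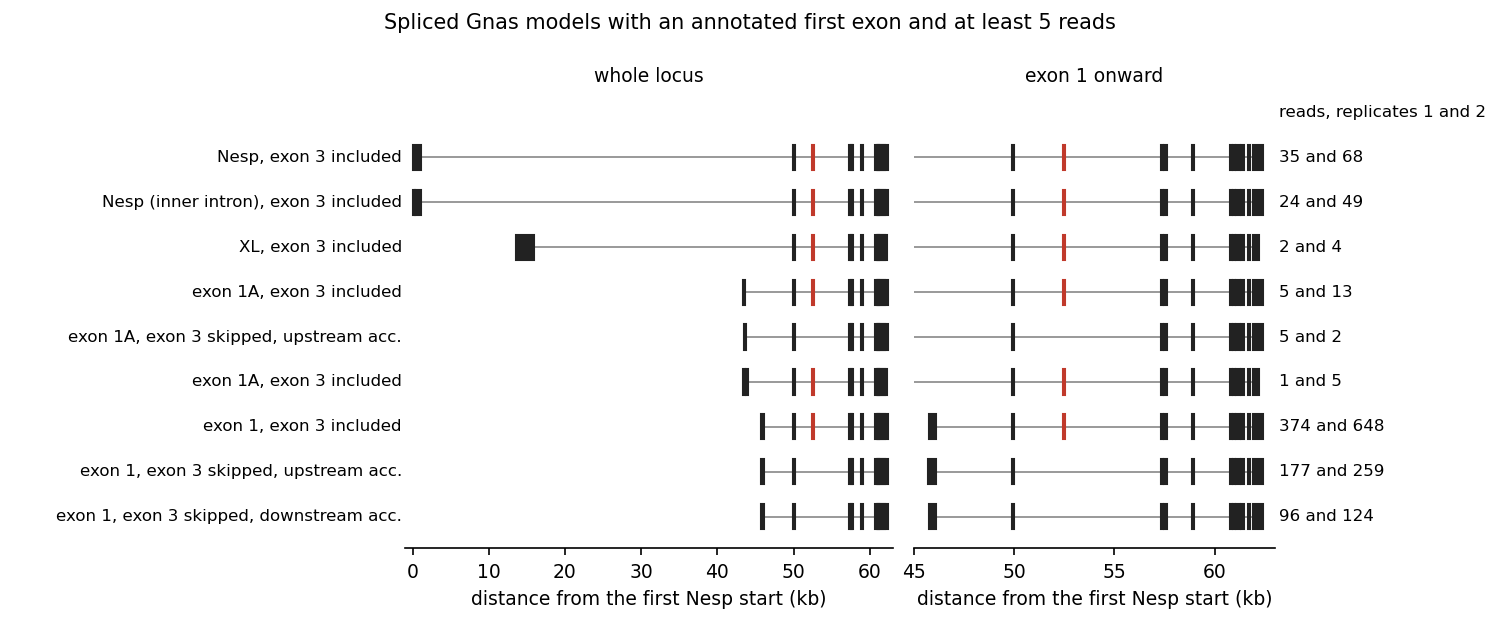
Exon structures of the 9 spliced Gnas models with an annotated first exon and at least 5 reads over both libraries, against the distance in kb from the first Nesp start, over the whole locus and from exon 1 onward. Boxes are exons (short ones drawn wider than scale so that they can be seen), red boxes are exon 3, "acc." is the acceptor of exon 4, and the numbers are reads in replicates 1 and 2. The 3 models from exon 1 hold most reads, and the Nesp models shown all carry exon 3.

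Many models were seen in 1 read, 16 of 32 in replicate 1 and 21 of 48 in replicate 2, yet models with at least 5 reads held 735 of 770 and 1212 of 1278 reads. The libraries shared 19 spliced intron chains, which was 65.5% of the 29 chains of replicate 1 and 43.2% of the 44 chains of replicate 2. Those 19 chains carried 98.1% and 97.3% of the spliced reads. Outside the annotation, 13 chains were shared, of 23 in replicate 1 and 36 in replicate 2. The unannotated chain with the most reads ran from the Nesp exon, without the intron inside it, to the common end, with 35 and 68 reads. Exon 1A joined straight to exon 2 gave 5 and 13 reads with exon 3, and 5 and 2 reads without exon 3 and with the upstream acceptor.

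First exon use was led by exon 1. Of the reads with an annotated first exon, 656 of 730 (89.9%, 87.5 to 91.8) in replicate 1 and 1039 of 1195 (87.0%, 84.9 to 88.7) in replicate 2 began there, a mean of 88.4 ± 2.06% (SD, n = 2). Nesp, the start of the NESP55 transcripts, came next with 61 reads (8.36%, 6.56 to 10.6) and 126 reads (10.5%, 8.93 to 12.4), or 154 and 177 CPM. These were the bulk of the transcripts that did not begin at exon 1. Exon 1A, the untranslated start, had 11 reads (1.51%, 0.843 to 2.68) and 25 reads (2.09%, 1.42 to 3.07). XL, the start of XL-alpha-s, had 2 reads (0.274%, 0.0752 to 0.993) and 5 reads (0.418%, 0.179 to 0.976).

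The order exon 1, Nesp, exon 1A, XL was the same in both libraries. The intervals of exon 1A and XL overlapped in replicate 1 and did not in replicate 2, and those of the other neighbours overlapped in neither. Between libraries none of the 4 shares passed Fisher's exact test. Adjusted over these 4, p was 0.239 for exon 1, 0.263 for Nesp, 0.522 for exon 1A and 0.716 for XL. The annotated transcripts with the most reads of the Nesp and XL starts were longer than that of exon 1 (Gnas-211 2465 bases and Gnas-209 3519, beside 1716 for Gnas-208). The most read Nesp chain was deposited with 1592 bases in replicate 1 (35 reads) and with 2528 in replicate 2 (68 reads). The part of read length in these shares was not tested. The shares of Nesp and exon 1A rested mostly on unannotated models. With annotated transcripts alone they were 4.03% and 0.349% (means of the libraries), since the most read Nesp chain and both main exon 1A chains carry no annotated name.

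**Figure D2:**
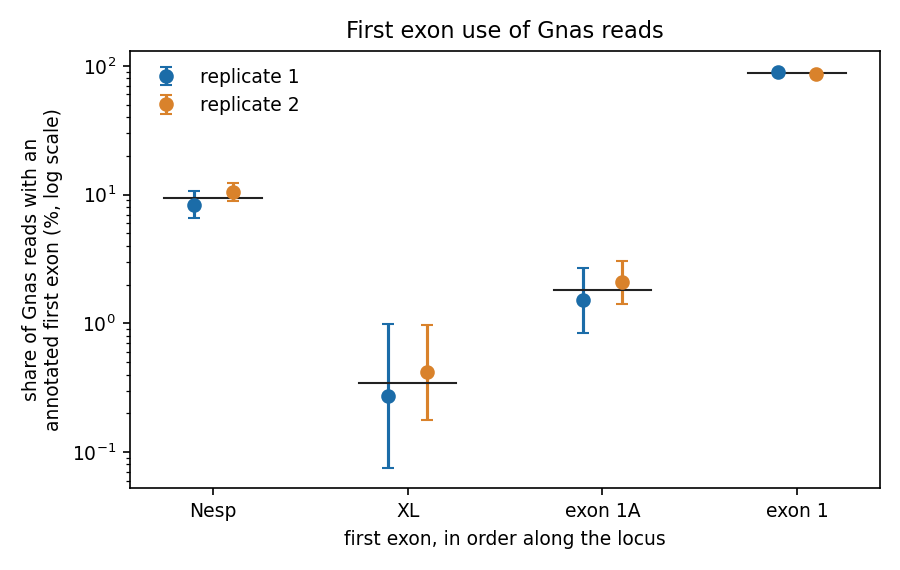
Share of Gnas reads that begin at each annotated first exon, in percent on a log scale, among reads with an annotated first exon. Points are libraries with 95% Wilson intervals and horizontal lines the means of both; exon 1 holds a mean of 88.4% and Nesp 9.45%.

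Among Nesp reads, the intron inside the Nesp region was removed in 24 of 61 reads (39.3%) in replicate 1 and in 52 of 126 (41.3%) in replicate 2, a mean of 40.3 ± 1.36% (SD, n = 2), with p = 0.874 by Fisher's exact test between the libraries. The remaining reads do not hold that intron either because it was kept or because the read began downstream of it. Of the chain without it, the model deposited for replicate 2 starts at base 174284320 and that for replicate 1 at 174285256, and starts of models are not exact to the base. In 1 and 4 Nesp reads an extra exon lay between the Nesp exon and exon 2.

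A few reads, 3 in replicate 1 and 10 in replicate 2, had a first exon outside the annotated ones, and all of them carried exon 3. In 2 and 3 of them the first exon ended at base 174300980, which is 763 bases after the end of the XL exon. All 5 then held the exon at 174306576-174306636 before reaching exon 2. In another 1 and 2 reads exon 1 ended 34 bases before its annotated donor. Most of these models rest on 1 read.

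Exon 3 was kept in 449 of 735 reads (61.1%, 57.5 to 64.6) in replicate 1 and in 803 of 1203 reads (66.8%, 64.0 to 69.4) in replicate 2, a mean of 63.9 ± 4.00% (SD, n = 2). The 2 libraries differed at p = 0.0125 by Fisher's exact test, and at 0.0877 after adjustment over 7 Gnas shares. These were the 4 first exons, exon 3, the exon 4 acceptor and the end, and other between-library tests of Gnas shares were not in this family. In reads from exon 1 alone the shares were 57.7% and 62.5% (p = 0.0523 by Fisher's exact test). The chromaffin markers took 1.09% and 1.20% of the reads of the same libraries, and their part in this value was not tested.

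Exon 3 inclusion went with the first exon among reads of bulk tissue, in which first exon and cell type cannot be told apart. NESP55 transcripts kept exon 3 in nearly every read, 60 of 61 (98.4%, 91.3 to 99.7) in replicate 1 and 121 of 126 (96.0%, 91.1 to 98.3) in replicate 2, against 378 of 655 (57.7%, 53.9 to 61.4) and 649 of 1038 (62.5%, 59.5 to 65.4) reads from exon 1. The difference was 40.7 points in replicate 1 and 33.5 in replicate 2, a mean of 37.1 ± 5.05 (SD, n = 2). The intervals of Nesp and exon 1 did not overlap in either library. Fisher's exact test gave adjusted p = 5.7e-12 in replicate 1 and 7.1e-17 in replicate 2, adjusted over the 4 tests of a library.

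The 3 upstream first exons, pooled, kept exon 3 in 91.9% and 93.5% of reads, 34.2 and 31.0 points more than exon 1 (adjusted p = 1.6e-09 and 7.1e-17, Fisher's exact test). Most of those reads were Nesp reads. XL reads kept it in 2 of 2 and 4 of 4, too few to set apart from exon 1 (adjusted p = 0.682 and 0.303, Fisher's exact test). Exon 1A reads kept it in 6 of 11 (54.5%, 28.0 to 78.7) and 19 of 24 (79.2%, 59.5 to 90.8), and the difference from exon 1 was -3.16 and 16.6 points (adjusted p = 1 and 0.178, Fisher's exact test). Exon 1A and exon 1 could thus not be separated at this depth.

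Nesp reads without exon 3 were all in unannotated models, 1 in replicate 1 and 5 in replicate 2, and 3 of the 5 used the upstream acceptor of exon 4. Of Nesp reads that hold the inner intron, which must have begun near the far end of the Nesp exon, 24 of 24 and 51 of 52 carried exon 3.

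**Figure D3:**
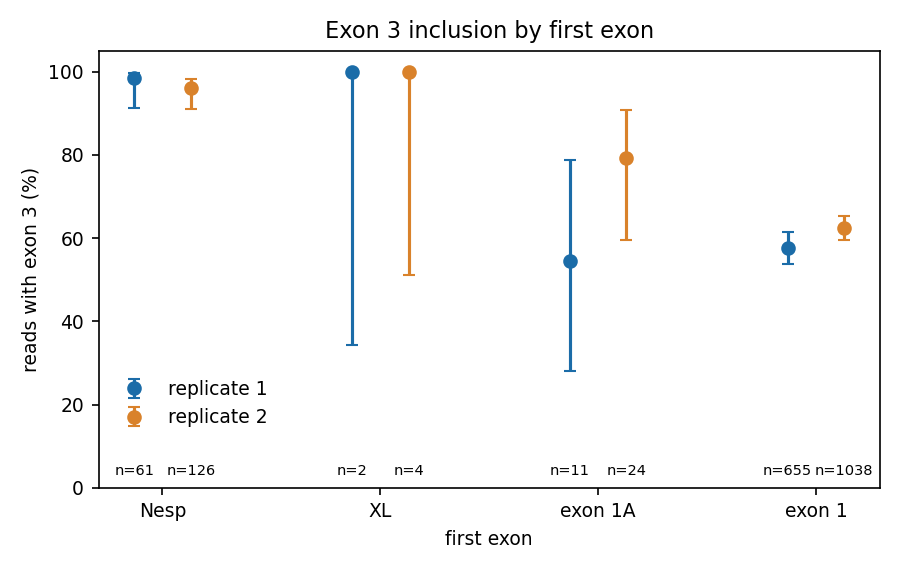
Share of reads that keep exon 3, in percent, by first exon, with 95% Wilson intervals and the number of reads (n) at the foot, for replicates 1 and 2. Nesp reads lie at 98.4% and 96.0% and exon 1 reads at 57.7% and 62.5%, while the intervals of XL and exon 1A are wide.

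The acceptor of exon 4 went with exon 3. Among reads that skipped exon 3, the upstream acceptor was used by 186 of 285 (65.3%) in replicate 1 and 266 of 399 (66.7%) in replicate 2. Among reads that kept exon 3 it was used by 0 of 449, which allows a share of up to 0.668%, and by 0 of 803, which allows up to 0.374%. Fisher's exact test gave p = 4.6e-101 and 3.7e-166. No annotated Gnas transcript joins exon 3 to the upstream acceptor, but reads that did so could have been deposited as unannotated models, and none was. Over all reads that enter exon 4, the upstream acceptor was used by 25.3% and 22.1%, a mean of 23.7 ± 2.32% (SD, n = 2).

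The reads from exon 1 therefore fell into 3 forms. The form with exon 3 made up 57.8% (54.0 to 61.5) and 62.5% (59.5 to 65.4), that without exon 3 and with the upstream acceptor 27.2% (23.9 to 30.8) and 25.1% (22.5 to 27.8), and that without exon 3 and with the downstream acceptor 15.0% (12.4 to 17.9) and 12.4% (10.6 to 14.6). The order of the forms was the same in both libraries and their intervals did not overlap within a library. Between the libraries the forms gave p = 0.0586, 0.333 and 0.143 by Fisher's exact test, before any adjustment.

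**Figure D4:**
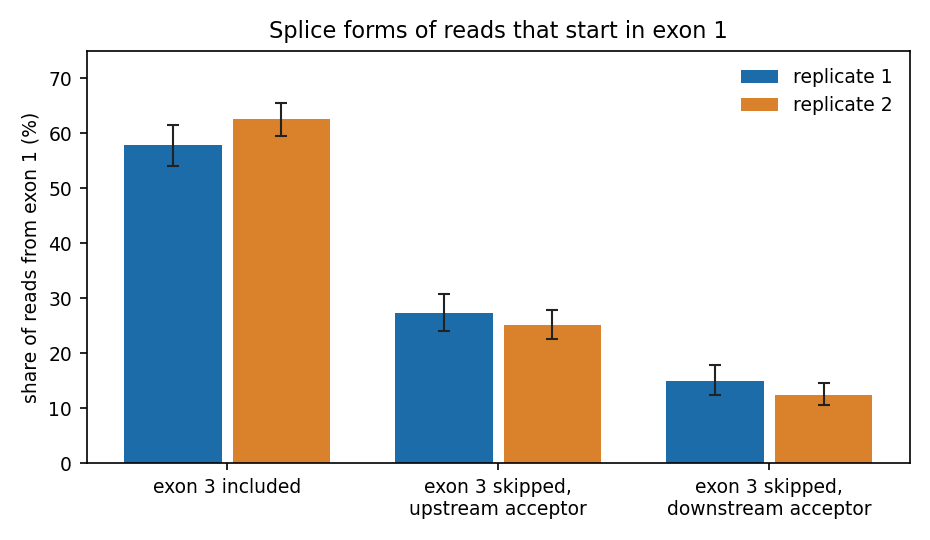
Shares of the 3 splice forms among Gnas reads that begin at exon 1, in percent, for replicates 1 and 2, with 95% Wilson intervals. The form with exon 3 is the most read, at 57.8% and 62.5%.

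Other splice choices were rare. Exon 2 ended downstream of its annotated donor in 3 and 6 reads, of which 2 and 4 used a donor 4 bases further on. Exon 2 was skipped in 0 and 1 read, and exon 4 in 1 and 0. The intron after exon 4 was kept in models that begin inside exon 4, at base 174341704. They held 1 read in replicate 1, and 4 and 1 reads in replicate 2.

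Nearly all Gnas reads ended in the common last exon (174346242-174346712), 767 of 770 (99.6%, 98.9 to 99.9) and 1265 of 1278 (99.0%, 98.3 to 99.4). Fisher's exact test did not call the shares different between the libraries (p = 0.193). No read ended in exon N1 (174337621-174338084), the early last exon of 4 annotated transcripts, which allows a share of up to 0.390% and 0.235% of Gnas reads. The other 3 and 13 reads ended elsewhere. Of these, 2 reads of replicate 1 ended at base 174331703 and 7 of replicate 2 at 174331702, which is 1269 and 1268 bases after exon 1, within the first intron. All but 1 of those 9 reads held no intron. The 2 of replicate 1 were deposited with a start at base 174330006, in exon 1. Those of replicate 2 were deposited with a start at 174327757, in exon 1A, 6 without an intron and 1 with introns of its own. Reads without an intron are in no first-exon group, so those 6 are not among the exon 1A reads above. Every model that reached the last exon, 30 in replicate 1 and 43 in replicate 2, was deposited with the end of an annotated transcript, so the exact site where reads ended cannot be told.

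Reads on the minus strand over the locus were few, 3 in replicate 1 and 8 in replicate 2. Antisense-class models held 1 and 5 of them. The model of replicate 1 had 3 exons (174322597-174327570) and lay between the XL exon and exon 1A. Of the 4 models of replicate 2, none spliced, 3 lay in the same stretch between 174316104 and 174321649 and the fourth at 174328131-174328367, just after exon 1A, with 2 reads. Nespas, the paternally expressed transcript antisense to Nesp, had 0 and 1 read over Gnas. Gm20721, annotated as a protein-coding gene on the minus strand opposite the exons of Gnas, had 2 and 2 reads, and 1 of its models had 4 introns that all ended at borders of Gnas exons. Whether those reads were antisense RNA or Gnas reads set on the wrong strand was not tested. In replicate 1 all these counts were at or below the 3 reads that a count of 0 allows (7.55 CPM).

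At the level of first introns, Gnas used 1 donor for at least 5% of its annotated spliced reads in each library, as did 499 of 552 genes (90.4%) with at least 100 such reads. This value depends on the minimum: at 1% per donor Gnas used 2, as did 17.9% of the 552 genes, and 4.17% used more. It also counts annotated transcripts alone, which leaves out the most read Nesp chain (35 and 68 reads). Nesp reads are moreover spread over the donors 174284508 and 174285477. With all spliced models Gnas again used 1 donor at the 5% minimum, as did 79.8% of 654 genes. The number of donors is thus not the number of first exons in use. The 5 most read of the genes with 1 donor at the 5% minimum were Cyp11a1, Cyp21a1, Star, Akr1c18 and Cyp11b1, all of steroid hormone metabolism, which share with Gnas the number of donors and no more than that.

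The genes that act in the signal from receptor to cyclic AMP were also read. The 7 lists cover receptors, G protein subunits, adenylyl cyclases, protein kinase A, phosphodiesterases and regulators of G protein signalling. Of their 91 genes, Gnas among them, 52 had at least 10 reads over both libraries. Of these 52, 3 passed the exact binomial test between the libraries, beside 2.15% of all genes tested. The levels given are CPM, not scaled for length, and bear on differences between libraries only.

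Among the receptors and adaptors 5 of 16 genes were tested and 1 was called. Mc2r, the corticotropin receptor, had 73.0 CPM in replicate 1 and 84.3 in replicate 2. Mrap, the accessory protein that Mc2r needs to reach the cell surface, had 758 CPM in replicate 1, against 473 in replicate 2 (log2 of replicate 2 over replicate 1 -0.68, adjusted p = 1.04e-06, exact binomial test). The median log2 ratio of the tested list members was -0.11, beside 0.03 for all genes.

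Of the G-alpha family 10 of 16 genes were tested and none was called. Gna12, another alpha subunit, had 355 and 253 CPM (adjusted p = 0.0965, exact binomial test). Of the G-beta and G-gamma subunits, the partners of G-alpha, 12 of 17 were tested, and Gnb2 was higher in replicate 2, at 348 and 485 CPM (log2 ratio 0.48, adjusted p = 0.0432, exact binomial test). That call was lost with annotated transcripts alone (adjusted p = 0.0908, exact binomial test), under which the G-alpha gene Gna13 passed instead (0.0453). Gng5, a gamma subunit, had 315 and 357 CPM.

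Adenylyl cyclases, which make cyclic AMP, were thinly read, with 32 and 56 reads over the 10 genes. The 2 with the highest means were Adcy3, with 27.7 and 19.7 CPM, and Adcy4, with 22.7 and 9.83 CPM, and none of the 4 tested was called. All 6 protein kinase A genes were tested. The regulatory subunit Prkar2b was lower in replicate 2, at 335 CPM in replicate 1 and 191 in replicate 2 (log2 ratio -0.81, adjusted p = 0.000692, exact binomial test). Like Mrap, it ran the same way as the called markers Ucp1, Star, Cyp11a1, Cyp11b1, Th and the 4 liver genes. Hsd3b1 of the cortex and Chga and Chgb of the chromaffin cells were called the other way. The other markers were not called, Cyp21a1 and Nr5a1 of the cortex and Cidea of brown fat among them. The part of the marked tissues in the Mrap and Prkar2b differences was not tested. Prkar1a, a relative of Prkar2b, had 697 and 607 CPM and the catalytic subunit Prkaca 516 and 472, and neither was called.

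Phosphodiesterases, which break down cyclic nucleotides, gave 6 tested genes of 16 and no call, with Pde2a at 116 and 169 CPM and Pde8b at 108 and 81.5. Of the regulators 9 of 10 were tested and none was called. Ric8a, a chaperone and exchange factor of G-alpha subunits, had 80.6 and 85.7 CPM, and Rgs2, a member of the family that speeds the switching off of G proteins, had 50.4 and 64.6.

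**Figure D5:**
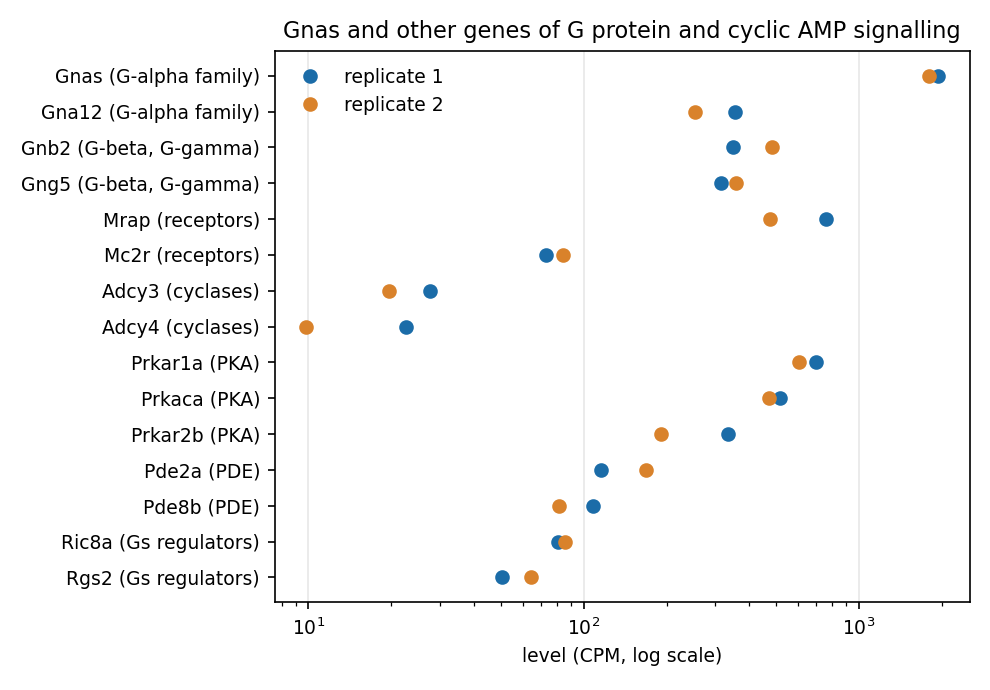
Levels in CPM (log scale, not scaled for length) of Gnas and of the list members named in the text, in replicates 1 and 2. The points of a gene are to be read against each other. Mrap (758 and 473 CPM), Prkar2b (335 and 191 CPM) and Gnb2 (348 and 485 CPM) were called between the libraries, and Gnas (1939 and 1795 CPM) was not. The points of Adcy4 (22.7 and 9.83 CPM) lie further apart, on 9 and 7 reads and without a call.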

How the data were processed

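Long-read RNA sequencing was done on 2 adrenal gland libraries. The deposited tables give whole read counts per transcript model in each library, and the deposited annotations give the exons of each model. Per the labels, the build is mm10. The aligner is not given in the sources used here. Per the file headers, models were named on the GENCODE M21 annotation, each library on its own. Known transcripts carry annotated ends, and every new Gnas model that reaches the last exon also ends at an annotated position, so ends are not those of single reads.

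All models named Gnas were grouped by the donor of their first intron, exon 3, the exon 4 acceptor and their end (within 200 bases of the annotated one). The members and lists were chosen with earlier results of these data known. Named were models with an annotated first exon and at least 5 reads over both libraries, and every antisense model with reads. Models that began in or after exon 2 or held no intron were mostly given by count. In each list the 2 genes with the highest mean level and every gene past the threshold of 0.05 were named. Genes with at least 10 reads over both libraries entered an exact binomial test (two-sided) with Benjamini-Hochberg adjustment (scipy 1.17.1), with 0.5 added to each count for log2 ratios. Shares were compared by Fisher's exact test, and transcript use in genes with at least 20 annotated reads in each library. Added control RNAs were left out. The tests over all genes were first tested on simulated data. Alternatives included the scalings of edgeR 4.0.16 and DESeq2 1.42.0.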

Additional observations from a re-analysis of the deposited data

How the results depend on the processing

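Of 25 alternatives to tested values, 24 kept the direction and the side of the threshold. This count includes alternatives that could not change, so it does not measure stability. Among them are the Nesp difference with annotated transcripts alone and the Gnas-208 share with a minimum of 50 annotated reads. Of 33 alternatives to values without a test, 22 lay within the range allowed. That range was 1 SD of the libraries or, for the first-donor share, its 95% Wilson interval. One of them, exon 3 inclusion in reads that reach the last exon, held the same reads as the reported value. The 9 counts of genes were within 1.5 times the reported count. With annotated transcripts alone, the mean Gnas level was 2096 CPM, and the shares were 4.03% for Nesp, 0.349% for exon 1A and 95.3% for exon 1. The exon 3 difference of exon 1A from exon 1 in replicate 1 was then 42.2 points in place of -3.16, from 1 read. No annotated Nesp transcript that reaches the common end skips exon 3, so annotated transcripts alone say nothing of the Nesp difference. They say little of the pooled upstream difference, where Nesp gave 24 of 27 reads in replicate 1 and 49 of 59 in replicate 2. With all Gnas reads as the total, exon 1 took 83.3%. Without 1-exon models the level was 2045 CPM, ends in the common last exon 99.9% and annotated reads 89.0%. Genes with as many first donors in use as Gnas made up 17.9% at 1% per donor, 94.4% at 10% and 79.8% with all spliced models. The causes were not tested beyond the smaller sets of reads. Nesp reads with the inner intron alone, an alternative chosen after seeing the data, differed from exon 1 by 42.3 and 35.6 points. Leaving out a replicate gave the value of the other library, which with 2 libraries always lies within 1 SD of their mean and so says nothing of stability; the Nesp difference was then 33.5 to 40.7 points. No paired analysis was possible because there is 1 group. A window of 50 in place of 200 bases for ends could not change the counts. Depth limits XL and exon 1A most.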
